A study of Mus musculus with 13 samples.

Results

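The comparison described here is the 2-day differentiation of mouse oligodendrocyte precursor cells (OPCs) that carry a conditional knockout (cKO) of Eed. It sets 2 libraries of immature oligodendrocytes (iOLs) against 3 libraries of OPCs, all Eed cKO, chosen by their labels and not by any measured value. These 5 samples are part of 9 RNA samples and 13 samples in the whole series, and the 13549 genes of the count table were all tested. The cells came from brains of C57BL/6 mice. The brains of both Eed cKO iOL libraries and of Eed cKO OPC library 3 were taken at postnatal day 6, and those of Eed cKO OPC libraries 1 and 2 at postnatal day 7. OPCs of every group grew in a DMEM-Sato medium with PDGF and NT-3, and iOLs were collected 2 days after the thyroid hormone T3 was added and PDGF withdrawn. Eed control cells went through the same steps and gave 2 OPC libraries, 1 of day 7 and 1 of day 6, and 2 iOL libraries of day 6. The genotype entry reads EED cKO for controls and knockouts alike, so the groups were taken from the sample titles. The labels do not say how or in which cells the deletion was driven, nor which exons it removes, and they do not say whether replicates came from separate animals or cultures. The p-values therefore measure the spread between these samples, which may be technical.

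OPCs are the dividing progenitors of the central nervous system that give rise to myelin-forming oligodendrocytes. In culture, PDGF keeps them dividing, and its withdrawal together with thyroid hormone lets them leave the cell cycle and begin to make the proteins and lipids of myelin. Eed belongs to the core of the Polycomb repressive complex PRC2, which methylates histone H3 at lysine 27 and keeps genes of other lineages and other stages silent.

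Eed itself was read at 13.3, 11.8 and 12.5 CPM (counts relative to the total of the library, scaled with TMM factors) in Eed cKO OPC libraries 1 to 3. It was read at 14.6 and 12.1 CPM in the Eed cKO iOL libraries. In control cells it was read at 21.7 and 16.8 CPM in OPCs and 18.0 and 21.2 CPM in iOLs. All 5 Eed cKO values lay below all 4 control values, and the reads of a gene include any exon that was not deleted. Eed did not pass the test between the Eed cKO stages (log2 fold change of iOLs over OPCs 0.09 ± 0.17, adjusted p = 0.695, where the value after ± is the standard error, here and below). The 9 libraries held between 17417529 and 19680398 counts. The first principal component (64.9% of the variance) separated iOLs from OPCs, and Eed cKO OPC library 3 stood apart from libraries 1 and 2 on the third (8.16%). Libraries 1 and 2 differed from each other with a chi-square per degree of freedom of 7.67, and from library 3 with 47.3 and 47.4, so the OPC group holds 2 close libraries and 1 distant one that also differs in postnatal day. Control OPC library 1 also stood apart, with 5380 CPM of Lars2 against at most 380.7 CPM in any other library, and it enters the control values given here. The defining OPC markers Pdgfra and Cspg4 and the lineage factors Olig1, Olig2 and Sox10 were read in every library. Of the genes written as microglia markers only 2 of 15 are in the table. Every gene in it has at least 1 count in every library and at least 10 counts in 4 libraries, so an absent gene may be low and not unread.

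Over 2 days without Eed, 2505 genes were higher in iOLs and 2956 were lower, and 8088 did not pass the test. These are 18.5% and 21.8% of the genes tested, the background against which each gene group is read here. A call means an adjusted p under 0.05 in edgeR's quasi-likelihood test over all genes. Of the called genes 267 were over 4-fold higher and 417 over 4-fold lower, and the median log2 fold change of all genes was −0.0046. Precursor markers, cell-cycle genes, immediate early genes, ERK feedback genes, Notch pathway genes, ion channels and cholesterol synthesis genes all held larger shares of lower members than the background. In no gene list with at least 5 measured members did most of them rise. Without iOL library 1 the counts were 1428 higher and 1816 lower, and without iOL library 2 they were 1280 and 1800, since 1 library then stands for the group. With postnatal day as a term in the fit the background shares were 18.9% higher and 22.3% lower, and with the day 6 library as the only OPC library they were 8.05% and 12%.

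**Figure D1:**
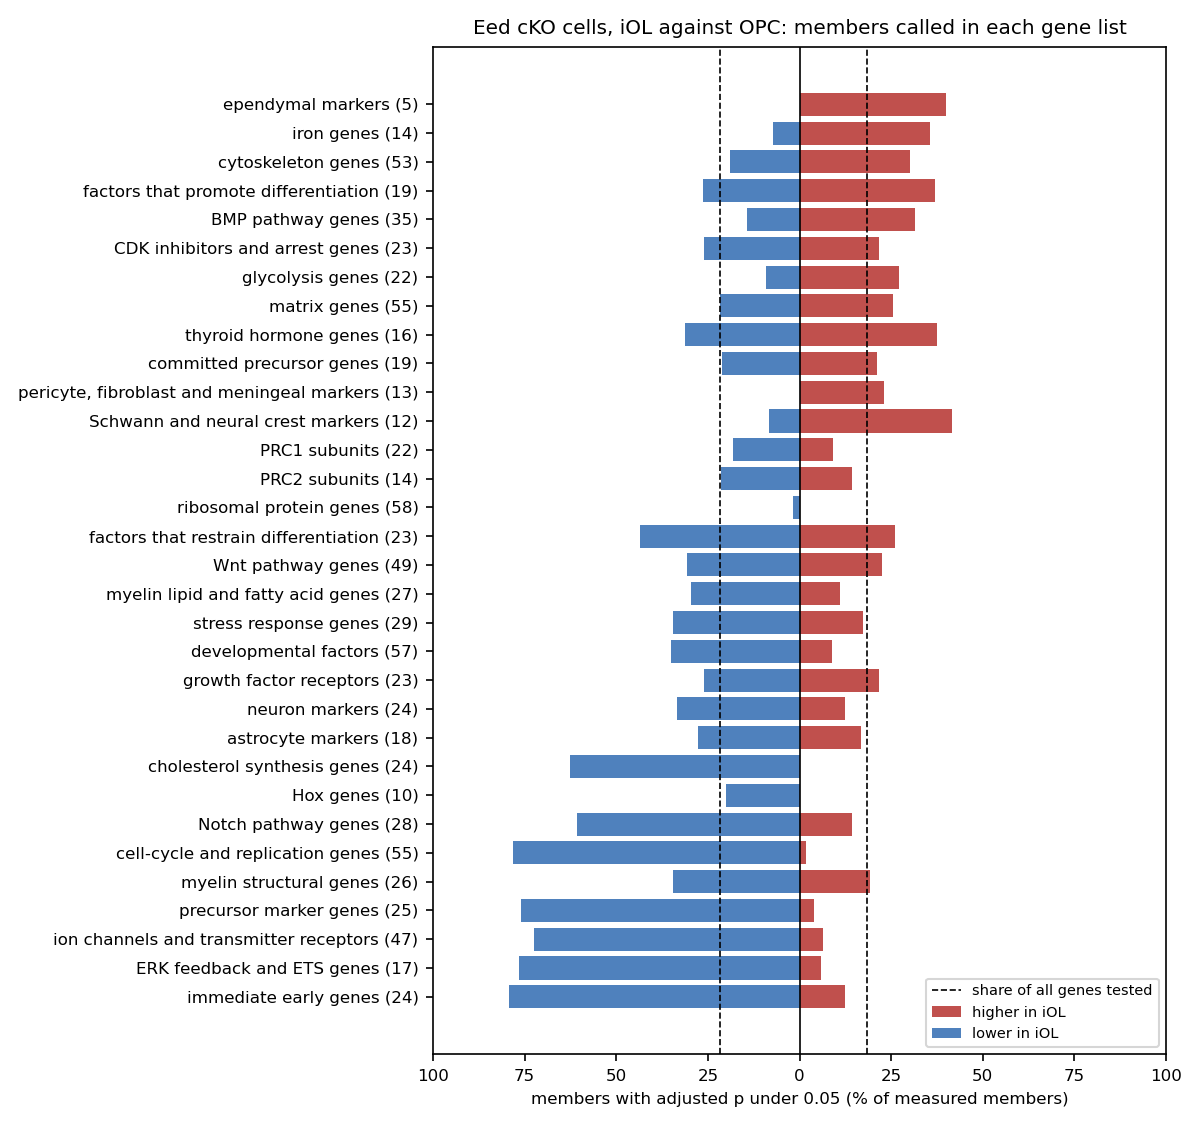
Share of the measured members of each gene list (number in parentheses) that was higher (red, to the right) or lower (blue, to the left) in Eed cKO iOLs than in Eed cKO OPCs, in percent, for lists with at least 5 measured members, ordered by median change. The dashed lines are the shares of all genes, 18.5% higher and 21.8% lower; the bars of immediate early, ERK feedback, ion channel, precursor marker and cell-cycle genes reach far past the line for lower genes.

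Precursor surface markers and the receptors for the factors that keep OPCs dividing fell. Of 25 precursor markers, 19 fell and 1 rose, with a median log2 fold change of −0.94. Pdgfra, the PDGF receptor whose ligand was withdrawn, was read at 3935, 4290 and 3830 CPM in the 3 OPC libraries and 821 and 635 CPM in the 2 iOL libraries. The groups did not overlap, and the level fell 5.52-fold (−2.46 ± 0.22, adjusted p = 3.25e-05). Cspg4, the NG2 proteoglycan of the OPC surface, stood at 1719, 1767 and 1380 CPM in OPCs and 119.6 and 154 CPM in iOLs (−3.56 ± 0.21, adjusted p = 4.57e-06). Sapcd2, a regulator of cell division orientation, had the largest change of the list, from 204, 192 and 168 CPM to 7.29 and 8.88 CPM (−4.54 ± 0.23, adjusted p = 2.8e-06). Pcdh15, a protocadherin, fell by 9.54-fold, and Emid1, a secreted protein of OPCs, by 8.24-fold. For all of these markers the 2 iOL libraries lay close together and far below every OPC library. The single member that rose was Cacng5, an auxiliary subunit of AMPA receptors (log2 fold change 2.13 ± 0.42, adjusted p = 0.00313). Ntrk3, the receptor for NT-3, which stayed in the protocol, stood at 388, 390 and 337 CPM in OPCs and 191 and 194 CPM in iOLs and also fell (−0.95 ± 0.16, adjusted p = 0.00127).

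Among 23 growth factor receptors 5 rose and 6 fell, with a median of −0.31. These counts depended on postnatal day: with day as a term 12 were lower and 4 higher, with a median of −0.71, and against the day 6 OPC library alone 3 were lower and 0 higher. Kit, the stem cell factor receptor, fell from 123, 109.5 and 84.6 CPM to 37.5 and 33.4 CPM, and the receptor kinase Tyro3 fell from 70.7, 72.2 and 85.05 CPM to 27.7 and 28.4 CPM. The members that rose include the neuregulin receptor subunits Erbb2 (log2 fold change 1.38 ± 0.47) and Erbb3 (0.69 ± 0.18) and Il6st, the shared signal transducer of the interleukin-6 cytokines (1.39 ± 0.27). Met, the hepatocyte growth factor receptor, was read at 2.06, 2.69 and 2.63 CPM in OPCs and 7.93 and 6.66 CPM in iOLs (1.56 ± 0.40, adjusted p = 0.0129). The Met call was not kept without iOL library 1 (adjusted p = 0.0845), nor those of Erbb2 and Erbb3 without iOL library 2 (adjusted p = 0.182 and 0.197).

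The genes that respond to mitogen signalling within minutes to hours were among the furthest changed. Of 24 immediate early genes 19 fell and 3 rose, with a median log2 fold change of −2.52. Fosb, a component of the AP-1 transcription factor, stood at 388, 520.3 and 299.5 CPM in OPCs and 0.958 and 1.75 CPM in iOLs. This was a 296-fold fall (−8.21 ± 0.39, adjusted p = 2.69e-06), and the iOL values rest on 18 and 33 counts. Klf2, a zinc finger factor, went from 38.6, 46.4 and 19.2 CPM to 0.692 and 0.846 CPM (−5.49 ± 0.61, adjusted p = 0.00013). Egr2, a zinc finger factor, went from 26.3, 28.97 and 27.2 CPM to 1.17 and 1.16 CPM (−4.55 ± 0.32, adjusted p = 1.15e-05). In each of these the lowest OPC library lay many times above the highest iOL library. Arc, known from synaptic activity, had its highest OPC value in the day 6 library, with 16.2, 15.5 and 32.9 CPM in OPCs against 0.638 and 1.32 CPM in iOLs. The members that rose were Ctgf (1.95), Fosl2 (1.42) and Nr4a3 (0.48), the last not called without iOL library 1 (adjusted p = 0.161). The summed level of the 24 genes was 5212, 5710 and 5579 CPM in the OPC libraries and 938.5 and 1038 CPM in the iOL libraries. Among 17 promoters of fallen members, the CArG box bound by serum response factor (sought by that name on either strand, and chosen after the values were seen) matched in 4, all overlapping or neighbouring promoters of Egr2, against 1.63% of all promoters, and the cyclic AMP response element TGACGTCA, chosen likewise, in 1, against 1.79%.

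Feedback inhibitors and ETS factors of the ERK pathway, which carries growth factor signals to the nucleus, followed the same direction, with 13 of 17 lower and 1 higher. Etv4, an ETS transcription factor, fell from 178, 167 and 198 CPM to 19.0 and 11.4 CPM (−3.57 ± 0.21, adjusted p = 4.95e-06). Spry4, an inhibitor of receptor kinase signalling, fell from 189, 162 and 233 CPM to 22.7 and 16.9 CPM (−3.30 ± 0.22, adjusted p = 7.23e-06). Dusp1, a phosphatase of MAP kinases, fell from 136, 145 and 195 CPM to 30.6 and 26.3 CPM. The 1 member that rose was Myc, with 30.6, 29.6 and 29.5 CPM in OPCs and 93.8 and 77.8 CPM in iOLs (1.52 ± 0.12, adjusted p = 2.17e-05).

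Notch signalling, through which contact with neighbouring cells holds OPCs undifferentiated, showed 17 of 28 genes lower and 4 higher, with a median of −0.83. The target and repressor Hes5 was read at 568, 508 and 331 CPM in OPCs and 32.1 and 25.3 CPM in iOLs, a 16.3-fold fall (−4.03 ± 0.37, adjusted p = 3.96e-05). Its relative Hes1 was read at 70.3, 66.2 and 69.2 CPM and 8.51 and 8.41 CPM (−3.02 ± 0.14, adjusted p = 2.69e-06). Nrarp, a feedback inhibitor of Notch, fell from 330.1, 289.7 and 189.5 CPM to 36.2 and 34.3 CPM, and Heyl from 16.6, 18.5 and 18.4 CPM to 1.86 and 2.7 CPM. Hes5 and Nrarp were lower in the day 6 OPC library than in both day 7 libraries, and every OPC library was far above the iOLs. The ligands Dll1 (−1.54), Dll3 (−2.82), Jag1 (−1.06) and Jag2 (−1.03) fell, whereas the ligand Dll4 rose (1.52), as did Numb (0.56), an inhibitor of Notch, and the DNA-binding partner Rbpj (0.42). The Jag1 and Rbpj calls were not kept without iOL library 2 (adjusted p = 0.0879 and 0.132).

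**Figure D2:**
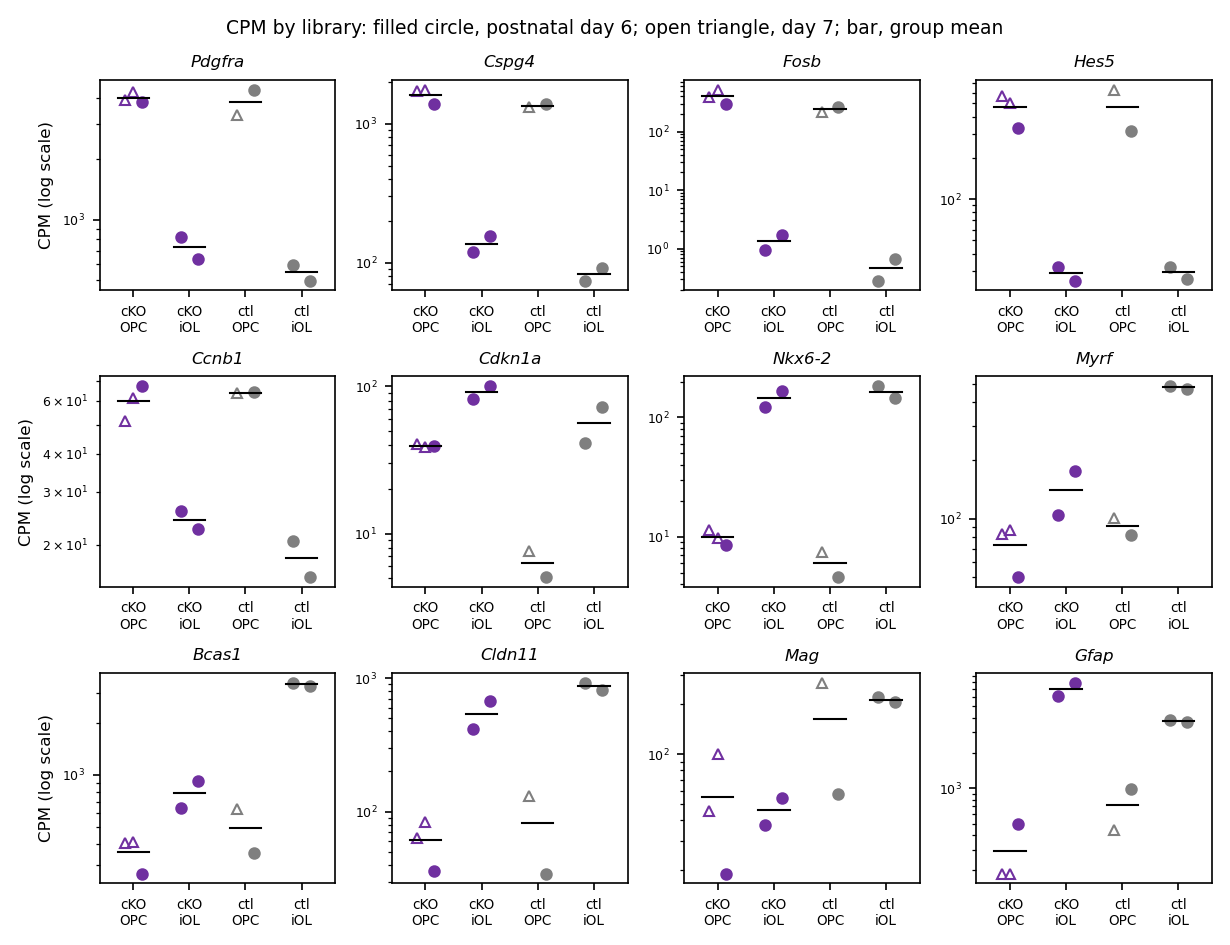
CPM of 12 genes in each library (log axes) for Eed cKO (purple) and control (grey) OPCs and iOLs; filled circles are postnatal day 6, open triangles day 7, and bars are group means. Pdgfra, Cspg4, Fosb, Hes5 and Ccnb1 of Eed cKO cells are lower in both iOL libraries than in every OPC library, Nkx6-2 and Gfap are higher, and Mag of the 2 iOL libraries lies between the values of the day 6 and the higher day 7 OPC library.

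Cell-cycle and replication genes fell broadly and by moderate amounts. Of 55 members 43 fell and 1 rose, with a median log2 fold change of −0.88. Cdc20, an activator of the anaphase-promoting complex, was read at 67.4, 73.6 and 75.97 CPM in OPCs and 23.5 and 20.2 CPM in iOLs (−1.72 ± 0.15, adjusted p = 3.29e-05). Foxm1, a transcription factor of mitotic genes, went from 124, 125 and 119.7 CPM to 40.5 and 36.01 CPM (−1.68 ± 0.12, adjusted p = 1.37e-05). Kif11, a motor of the mitotic spindle, went from 114, 124 and 101 CPM to 38.1 and 38.1 CPM (−1.57 ± 0.13, adjusted p = 2.72e-05). The groups did not overlap for any of them, and transcripts of all 3 were still read in both iOL libraries. Ccnd1, the D-type cyclin that links growth factors to the cycle, fell from 408, 465 and 449.9 CPM to 131 and 151 CPM (−1.64 ± 0.13, adjusted p = 1.99e-05). The replication licensing genes Mcm2 (−0.96) and Mcm5 (−1.16) fell as well. Mki67, the proliferation marker, did not pass the test (−0.70 ± 0.34, adjusted p = 0.128). Its values were 286, 335 and 161 CPM in OPCs and 176 and 146 CPM in iOLs, and the day 6 OPC library lay within the range of the iOLs. The member that rose was Ccne2, a cyclin of the start of replication (1.22 ± 0.24, adjusted p = 0.0032). In bulk samples, fewer dividing cells and less RNA per cell cannot be told apart.

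The promoters of these genes are shown because many members moved together. The cell cycle genes homology region (CHR), with the letters TTTGAA on either strand, is the element through which the DREAM complex acts on late cell-cycle genes, and E2F sites (TTNGCGC, either strand) act on early ones. In RefSeq promoters of GRCm38.p6, from 250 bases before to 50 after a start, 35 of the 43 fallen members had at least 1 entry. TTTGAA was found in 15 of their 38 promoters (39.5%), in 2 of 11 promoters of the other members, in 11.5% of promoters of all genes in the count table and in 17.9% of all 32851 promoters. TTNGCGC was found in 10 of the 38 promoters (26.3%), 4 of 11 of the other members, 10.8% for genes in the table and 6.36% of all promoters, and no match of 1 motif overlapped the other. A match is a description of the letters and not a site. Below, the 100 bases just upstream of the start are given for every fallen member with TTTGAA in them, on the strand of the gene, with the element or its reverse complement in capitals. The windows are chr4:118437344-118437443 (minus strand) for Cdc20, chr10:69352913-69353012 (minus) for Cdk1, chr4:136180682-136180781 (plus) for E2f2, chr7:48881597-48881696 (minus) for E2f8, chr19:37376282-37376381 (plus) for Kif11, chr6:88898781-88898880 (minus) for Mcm2, chr7:80294376-80294475 (plus) for Prc1 and chr11:99024190-99024289 (minus) for Top2a.
Cdc20: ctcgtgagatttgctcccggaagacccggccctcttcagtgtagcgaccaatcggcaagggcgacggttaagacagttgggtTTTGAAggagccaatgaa
Cdk1: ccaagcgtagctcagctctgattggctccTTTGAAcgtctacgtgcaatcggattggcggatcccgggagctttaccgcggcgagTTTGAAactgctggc
E2f2: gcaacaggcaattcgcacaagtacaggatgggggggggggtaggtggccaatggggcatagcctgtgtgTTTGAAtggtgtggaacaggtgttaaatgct
E2f8: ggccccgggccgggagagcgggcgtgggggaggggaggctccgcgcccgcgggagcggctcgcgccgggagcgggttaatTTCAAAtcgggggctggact
Kif11: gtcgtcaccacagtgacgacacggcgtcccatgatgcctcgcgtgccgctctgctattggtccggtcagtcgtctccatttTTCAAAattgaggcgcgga
Mcm2: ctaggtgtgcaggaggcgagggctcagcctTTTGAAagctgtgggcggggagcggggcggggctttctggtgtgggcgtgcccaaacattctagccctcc
Prc1: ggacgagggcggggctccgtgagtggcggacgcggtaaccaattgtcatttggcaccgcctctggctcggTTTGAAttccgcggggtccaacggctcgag
Top2a: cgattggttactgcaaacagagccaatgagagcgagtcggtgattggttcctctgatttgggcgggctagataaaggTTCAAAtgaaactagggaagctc
In Cdc20, Cdk1, E2f8, Kif11 and Top2a the capitals stand close to the start, at the right end of the window, and Cdk1 has a copy further upstream as well. The log2 fold changes of these genes were −1.72 for Cdc20, −1.12 for Cdk1, −0.98 for E2f2, −0.91 for E2f8, −1.57 for Kif11, −0.96 for Mcm2, −1.17 for Prc1 and −0.94 for Top2a. E2f2 and E2f8 lost their calls without iOL library 2 (adjusted p = 0.0594 and 0.0754).

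Inhibitors of cyclin-dependent kinases and other arrest genes did not move as a group, with 5 of 23 higher, 6 lower and a median of 0.15. Cdkn1a, which encodes p21, was read at 40.9, 38.7 and 39.3 CPM in OPCs and 82.1 and 100.5 CPM in iOLs (1.20 ± 0.23, adjusted p = 0.00278). The p53 target Ccng1 rose from 76.7, 86.7 and 87.1 CPM to 188 and 215 CPM (1.27 ± 0.15, adjusted p = 0.000189). Gadd45b, a stress response gene, fell from 20.5, 20.5 and 26.5 CPM to 4.1 and 3.44 CPM, and Btg1, an antiproliferative gene, from 132, 126 and 98.6 CPM to 34.8 and 30.4 CPM. Cdkn2a, which encodes p16 and p19Arf, stood at 21.97, 20.5 and 19.2 CPM in OPCs and 12.1 and 13.8 CPM in iOLs. Its iOL values were the lower ones, and it missed the threshold (−0.67 ± 0.24, adjusted p = 0.0522). In control cells Cdkn2a had 9 and 2 counts in OPCs and 1 count in each iOL library. With at least 10 counts in 4 libraries for every gene in the table, Cdkn2a is in it only through Eed cKO libraries. Its separation from controls was therefore largely fixed by which genes the table holds. Cdkn1b, which encodes p27, did not pass the test (−0.33 ± 0.15, adjusted p = 0.108), and neither did Cdkn1c, which encodes p57 (0.16 ± 0.29, adjusted p = 0.691). Cdkn1c was lowest in the day 6 OPC library, and it was called higher with postnatal day as a term (0.68, adjusted p = 0.0131) but not against that library alone (0.53, adjusted p = 0.407).

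Of 19 transcription and chromatin factors that promote oligodendrocyte differentiation 7 rose and 5 fell. Nkx6-2, a homeodomain factor of maturing oligodendrocytes, rose 14.6-fold, from 11.5, 9.69 and 8.46 CPM to 122 and 166 CPM (3.87 ± 0.23, adjusted p = 4.57e-06). Zeb2, a repressor of inhibitory signals, rose from 138, 139.5 and 112 CPM to 354 and 364 CPM (1.47 ± 0.16, adjusted p = 0.000114). Myrf, the factor that switches on myelin genes, was read at 83.1, 87.5 and 49.8 CPM in OPCs and 105 and 177 CPM in iOLs. Its groups did not overlap (0.94 ± 0.26, adjusted p = 0.0189), and the call was not kept without iOL library 2 (adjusted p = 0.234). Sox10, which is needed throughout the lineage, did not pass the test (0.06 ± 0.15, adjusted p = 0.791), nor did Nkx2-2 (0.44 ± 0.22, adjusted p = 0.148). With postnatal day as a term Nkx2-2 was called higher (0.76, adjusted p = 0.00926), and against the day 6 OPC library alone it was not (0.64, adjusted p = 0.184). Olig1 fell from 2086, 1939 and 2080 CPM to 798 and 612 CPM (−1.53 ± 0.19, adjusted p = 0.000283). Olig2 was at 410.5, 349.6 and 442 CPM in OPCs and 305 and 257 CPM in iOLs (−0.51 ± 0.14, adjusted p = 0.0185), a fall not called without iOL library 2 (adjusted p = 0.174). Myt1, a zinc finger factor of the lineage, fell from 544, 579.8 and 368 CPM to 152 and 150.4 CPM.

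Factors that restrain differentiation split by family. Of 23 members 6 rose and 10 fell. The Id proteins, which bind and block basic helix-loop-helix factors, rose, with Id1 at 25.8, 28.4 and 54.9 CPM in OPCs and 177 and 148 CPM in iOLs (2.16 ± 0.31, adjusted p = 0.000557) and Id3 at 64.4, 56.2 and 148 CPM and 411 and 348 CPM (2.08 ± 0.38, adjusted p = 0.00233). Id2 (0.99) and Id4 (0.53) rose less, and neither was called without iOL library 1 (adjusted p = 0.242 and 0.182). The Notch effectors Hes1 and Hes5 and the immediate early factors Egr1 (−3.94) and Klf4 (−4.21) were the members that fell furthest. Id1 and Id3 are also targets of BMP signalling, which diverts OPCs towards astrocytes. In that pathway 11 of 35 genes rose and 5 fell, with a median of 0.18. Bmp6, a ligand, rose from 2.01, 1.19 and 2.43 CPM to 13.8 and 26.97 CPM, and the inhibitory Smad6 rose as well (2.21). The ligand Bmp2 fell from 10.4, 8.35 and 5.37 CPM to 0.851 and 1.06 CPM, and the extracellular BMP antagonist Chrd from 37.8, 34.6 and 32.7 CPM to 8.04 and 7.3 CPM (−2.19 ± 0.15, adjusted p = 8.47e-06). The receptor Bmpr1a rose (1.41), as did Smad1 (0.56) and Smad9 (1.25), which carry the signal. Without iOL library 1 neither Smad6 nor Smad9 was called (adjusted p = 0.0651 and 0.0753).

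Thyroid hormone genes gave no common direction, with 6 of 16 higher, 5 lower and a median of −0.02. Hr, a corepressor induced by T3, was read at 51.7, 49.2 and 43.6 CPM in OPCs and 235 and 241 CPM in iOLs (2.30 ± 0.13, adjusted p = 4.31e-06). Klf9, a T3-induced zinc finger factor, was read at 29.7, 34.04 and 27.4 CPM and 80.8 and 76.99 CPM (1.38 ± 0.14, adjusted p = 8.08e-05). Dio2, the deiodinase that makes active T3, fell from 36.8, 44.5 and 109 CPM to 17.6 and 10.6 CPM. Its OPC value was highest in the day 6 library, and the call was lost without iOL library 2 (adjusted p = 0.0825). The receptor gene Thra fell slightly (−0.44), and Thrb rose (0.61), calls lost without iOL library 1 for Thra (adjusted p = 0.175) and without iOL library 2 for Thrb (adjusted p = 0.296).

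Genes that mark committed precursors, the step between OPCs and iOLs, showed 4 of 19 higher and 4 lower, with a median of −0.03. Bcas1, a protein of newly formed oligodendrocytes, was read at 401, 406 and 267 CPM in OPCs and 643 and 921 CPM in iOLs (1.13 ± 0.28, adjusted p = 0.0104). Enpp6, an early marker of new oligodendrocytes, was read at 18.3, 25.6 and 6.19 CPM in OPCs and 25.2 and 45.3 CPM in iOLs and did not pass the test (1.08 ± 0.49, adjusted p = 0.107). Gpr17, a receptor that holds cells at this step, was read at 1866, 1625 and 1866 CPM in OPCs and 869 and 1201 CPM in iOLs (−0.79 ± 0.19, adjusted p = 0.00876). Bcas1 lay higher in both iOL libraries than in every OPC library, Gpr17 lay lower, and Enpp6 overlapped, with its lowest value in the day 6 OPC library. Neither the Bcas1 call nor the Gpr17 call was kept in every fit that left out 1 library (largest adjusted p 0.111 without iOL library 2 and 0.104 without iOL library 1). Kif19a, a kinesin, rose from 16.3, 18.04 and 10.7 CPM to 37.99 and 54.8 CPM, a call lost without iOL library 2 (adjusted p = 0.0678). Enpp4 rose from 11.4, 12.8 and 10.4 CPM to 19.1 and 23.3 CPM (0.87 ± 0.15, adjusted p = 0.00156) and Mycl fell from 117, 103 and 85.6 CPM to 30.8 and 42.8 CPM (−1.47 ± 0.18, adjusted p = 0.000221), both kept without each library.

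Myelin genes gave no common direction. Of 26 measured members 5 rose, 9 fell and 12 did not pass, with a median of −0.91. Cldn11, a tight junction protein of myelin, rose 8.87-fold, from 63.4, 84.1 and 35.9 CPM to 414 and 671 CPM (3.15 ± 0.51, adjusted p = 0.00116). Gjb1, the connexin 32 channel protein, fell from 23.6, 25.8 and 20.2 CPM to 0.479 and 0.529 CPM (−5.51 ± 0.34, adjusted p = 5.84e-06), with 9 and 10 counts in the iOL libraries. Mobp, a late myelin protein, fell from 118, 184 and 51.4 CPM to 4.63 and 7.08 CPM (−4.32 ± 0.70, adjusted p = 0.00114). Pllp, a membrane protein of myelin, fell from 240.3, 236 and 199.8 CPM to 33.1 and 53.2 CPM (−2.38 ± 0.26, adjusted p = 0.00013). The day 6 OPC library had the lowest value of the 3 OPC libraries for all 4 genes. The same held for Mag, an adhesion protein of myelin, and Mbp, the myelin basic protein. Mag was read at 45.7, 101 and 19.1 CPM in OPCs and 37.6 and 54.7 CPM in iOLs (−0.26 ± 0.69, adjusted p = 0.793). Mbp was read at 1119, 1424 and 483 CPM in OPCs and 345 and 447 CPM in iOLs (−1.35 ± 0.52, adjusted p = 0.0637). For Mag the iOL libraries lay above the day 6 OPC library and below the higher day 7 library, and for Mbp both lay below every OPC library. Cnp (0.27 ± 0.23, adjusted p = 0.38) and Mog (−1.76 ± 0.83, adjusted p = 0.121) did not pass the test either. The letters ACAAAG of a SOX site (either strand) were in 4 of 12 promoters of the fallen myelin genes, 4 of 16 of the others and 18.7% of all promoters.

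Postnatal day moved with these values. In the median myelin gene, OPC library 3 was −0.69 on the log2 scale relative to libraries 1 and 2, and the summed level of the 26 genes was 3162, 4071 and 1994 CPM in OPCs and 3040 and 4018 CPM in iOLs. With postnatal day as a term, which the fit takes from OPC libraries of both genotypes, 7 myelin genes were higher and 6 lower, with a median of −0.14. Mag was then called higher (log2 fold change 1.37, adjusted p = 0.0109). Against the day 6 OPC library alone, whose spread was taken from the other groups, Mag was 1.28 with an adjusted p = 0.325 and Mbp −0.28 with an adjusted p = 0.777. In that fit 3 myelin genes were higher and 5 lower, with a median of −0.19. Cldn11 (3.92), Gjb1 (−5.30), Mobp (−3.12) and Pllp (−2.20) kept their calls there. Enpp6 was also called higher with the day term (2.19, adjusted p = 0.000632) and against the day 6 library (2.52, adjusted p = 0.022). Of the committed precursor genes 4 were higher and 2 lower against the day 6 library. The 2 control OPC libraries differed in the same direction, with Mag at 271 and 57.7 CPM at days 7 and 6 and Enpp6 at 35.3 and 17.8 CPM. Each day is 1 control library there, and that of day 7 is control OPC library 1, which stood apart. Day and library cannot be told apart in this pair, and the day term rests partly on it.

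**Figure D3:**
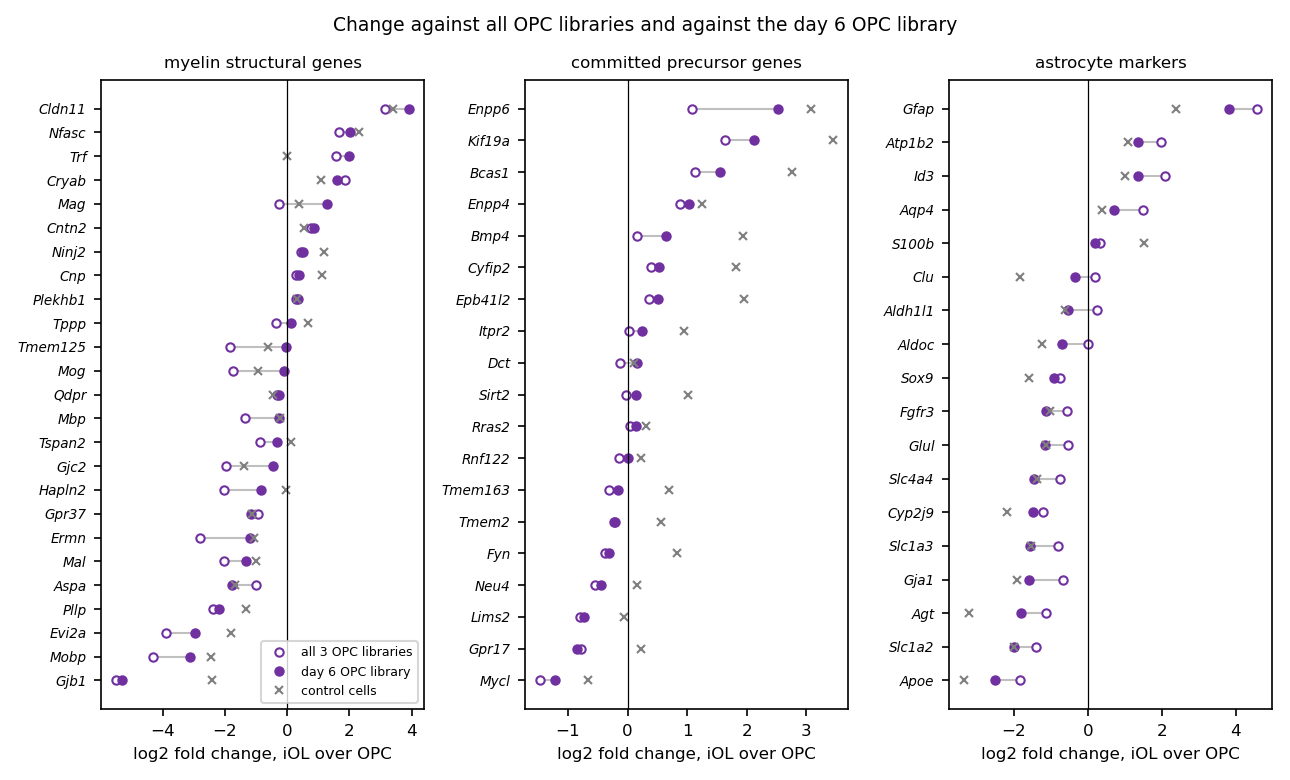
Log2 fold change of iOLs over OPCs for the myelin, committed precursor and astrocyte genes reported, in Eed cKO cells against all 3 OPC libraries (open circles) and against the day 6 OPC library alone (filled circles), and in control cells (crosses). Mag moves from −0.26 to 1.28 when only the day 6 OPC library is used, while Gjb1, Mobp and Pllp stay low and Cldn11 stays high.

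Cholesterol synthesis genes, which supply the main lipid of myelin, had 15 of 24 members lower and none higher, with a median of −0.68. Insig1, a sterol sensor, was read at 439.9, 468 and 269 CPM in OPCs and 91.2 and 89.6 CPM in iOLs (−2.12 ± 0.23, adjusted p = 0.000128). Stard4, a cholesterol carrier, was read at 234, 275 and 142 CPM and 76.4 and 86.3 CPM (−1.42 ± 0.25, adjusted p = 0.00179). The day 6 OPC library was the lowest OPC library for both. Against that library alone the share of members called lower was near that of all genes, and the list median was −0.43. With the day term 12 members were lower, beside 22.3% of all genes, and the median was −0.48. The synthesis enzymes Hmgcs1 (−0.06 ± 0.15, adjusted p = 0.782) and Sqle (−0.10 ± 0.12, adjusted p = 0.536) did not pass the test. The letters TCACNCCAC of a sterol regulatory element (either strand) were in none of 12 promoters of the fallen members, 1 of 8 of the others and 1.24% of all promoters. Among 27 genes of myelin lipids and fatty acids 3 rose and 8 fell. Elovl7, a fatty acid elongase, rose from 12.3, 14.6 and 7.84 CPM to 24.0 and 34.7 CPM, a call lost without iOL library 2 (adjusted p = 0.0593), and Galc, which degrades galactosylceramide, fell from 134, 132 and 134 CPM to 58.6 and 55.8 CPM (−1.22 ± 0.13, adjusted p = 0.000106).

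Gfap, the intermediate filament of astrocytes, rose 24.1-fold. It was read at 188, 187 and 500.5 CPM in OPCs and 6115 and 7938 CPM in iOLs (4.59 ± 0.50, adjusted p = 0.000115). The day 6 OPC library was the highest of the 3, and against it alone the log2 fold change was 3.82 (adjusted p = 0.01). Astrocyte genes as a list did not follow Gfap, with 3 of 18 higher, 5 lower and a median of −0.56. Atp1b2, a sodium pump subunit, rose from 453, 452 and 948 CPM to 2267 and 2611 CPM, and Apoe, a lipid carrier, fell from 1092, 1049 and 2537 CPM to 372 and 507 CPM. The log2 fold change of Atp1b2 was 1.98 against all OPC libraries and 1.37 against the day 6 library alone, and that of Apoe −1.83 and −2.52. The Apoe call was not kept without iOL library 1 (adjusted p = 0.0676). The glutamate transporter Slc1a2 (−1.39) and angiotensinogen Agt (−1.13) fell, the first not called without iOL library 2 (adjusted p = 0.168) and the second not without iOL library 1 (adjusted p = 0.205). The summed level of the 18 genes was 6094, 6300 and 14320 CPM in OPCs and 13980 and 16390 CPM in iOLs. Gfap gave 6115 and 7938 CPM of the iOL sums and 500.5 CPM of that of OPC library 3, so their similar totals rest on different genes. The median astrocyte gene of OPC library 3 stood 1.21 higher on the log2 scale than in libraries 1 and 2. In iOLs against that library alone, the median log2 fold change was −1.02. With the day term 3 members were higher and 12 lower. What part astrocytes have in these values was not tested.

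Markers of other cell types were read as well. The 13 measured pericyte, fibroblast and meningeal genes summed to 66.8, 66.8 and 121.5 CPM in OPCs and 297.6 and 484.9 CPM in iOLs, with 3 higher and none lower. Most of the iOL sums came from these 3, Acta2 (152 and 235 CPM), Tagln (80.9 and 160.6 CPM) and Igf2 (12.8 and 25.1 CPM). The other 10 did not pass the test, and the list median was −0.04. The 24 neuron genes summed to between 1120 and 1478 CPM in OPCs and to 1476 and 1503 CPM in iOLs, with 3 higher and 8 lower. Of 12 endothelial genes 4 are in the table. The VEGF receptor Kdr rose from 5.64, 4.52 and 4.54 CPM to 85.8 and 101 CPM (4.25 ± 0.20, adjusted p = 2.69e-06), and its relative Flt1 fell from 4.61, 5.98 and 5.16 CPM to 1.76 and 2.59 CPM, a call lost without iOL library 1 (adjusted p = 0.0901). The ependymal factor Foxj1 rose from 8.52, 7.38 and 8.26 CPM to 45.7 and 48.7 CPM (2.55 ± 0.17, adjusted p = 7.88e-06). The adult beta globin gene Hbb-b1 was the 1 red blood cell gene of 8 in the table, and its reads are uncertain because near-identical globin copies exist. It was read at 954, 1044 and 780.5 CPM in OPCs and 0.213 and 0.423 CPM in iOLs, the latter from 4 and 8 counts. Its log2 fold change of −11.48 ± 0.94 was the largest of all named genes, and control cells showed −10.76.

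The genes with the largest rises include several for secreted, contractile and filament proteins. Serpina3n (chr12:104406646-104414334), a serine protease inhibitor, was read at 24.6, 21.3 and 38.5 CPM in OPCs and 6763 and 9242 CPM in iOLs (8.15 ± 0.39, adjusted p = 2.69e-06). Acta2, smooth muscle actin, was read at 1.08, 1.19 and 1.03 CPM and 152 and 235 CPM (7.45 ± 0.31, adjusted p = 1.92e-06). Prph, the intermediate filament peripherin, was read at 2.66, 1.99 and 0.981 CPM and 227 and 279.6 CPM (7.08 ± 0.31, adjusted p = 2.53e-06). All 3 rose over 100-fold, with no OPC library near the iOL range. Bcl3, a partner of NF-kappaB (6.45), Tagln, an actin-binding protein (6.25), Hpgd, a prostaglandin-degrading enzyme (5.76), S1pr3, a receptor for sphingosine 1-phosphate (5.55), and the protease inhibitor A2m (5.30) followed. Fn1, fibronectin, rose from 13.8, 13.4 and 22.1 CPM to 555 and 833 CPM (5.40 ± 0.44, adjusted p = 2.18e-05), Fbln5, an elastic fibre protein, from 10.1, 10.2 and 9.13 CPM to 302 and 435 CPM (5.23 ± 0.18, adjusted p = 1.41e-06), and Pcolce, an enhancer of procollagen processing, and Col20a1, a collagen, both had 5.11. In control cells these 12 genes rose as well, by between 3.02 for Fbln5 and 8.30 for Acta2.

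Cytoskeletal genes had 16 of 53 members higher and 10 lower, with a median of 0.31. Vim, vimentin, was read at 266, 267 and 517 CPM in OPCs and 1979 and 2122 CPM in iOLs (2.55 ± 0.32, adjusted p = 0.000283). The tubulin Tubb3 was read at 46.9, 44.6 and 38.1 CPM and 164 and 193 CPM (2.05 ± 0.16, adjusted p = 1.74e-05), and Tubb6 rose from 9.11, 9.32 and 11.3 CPM to 51.4 and 55.3 CPM. Map1b (1.41) and Map1a (1.26), which bind microtubules, and Ezr (1.36), which ties actin to the membrane, also rose. The Map1b and Ezr calls were lost without iOL library 2 (adjusted p = 0.0658 and 0.118). Of 55 extracellular matrix genes 14 were higher and 12 lower, both near the background shares, and with postnatal day as a term 14 were higher and 20 lower. The protease inhibitor Timp1 rose from 0.977, 1.24 and 1.135 CPM to 11.8 and 12.2 CPM, and Spp1, osteopontin, from 0.868, 0.646 and 0.465 CPM to 10.96 and 14.7 CPM (4.27 ± 0.71, adjusted p = 0.00128). Hapln1, a link protein of the hyaluronan matrix, fell from 15.1, 20.1 and 43.5 CPM to 1.22 and 2.54 CPM (−3.80 ± 0.62, adjusted p = 0.00123). Bcan, brevican, a proteoglycan of the OPC surface matrix, fell too (−2.88).

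Ion channel and transmitter receptor genes, through which OPCs sense neurons, had 34 of 47 members lower and 3 higher, with a median of −1.17. The muscarinic receptor Chrm1 was read at 32.8, 30.9 and 21.8 CPM in OPCs and 2.18 and 2.06 CPM in iOLs (−3.74 ± 0.23, adjusted p = 5.4e-06). The sodium channel Scn1a was read at 56.04, 58.8 and 35.9 CPM and 4.63 and 6.03 CPM (−3.23 ± 0.25, adjusted p = 1.77e-05). The NMDA receptor subunit Grin2d was read at 41.5, 28.4 and 19.6 CPM and 3.88 and 3.12 CPM (−3.09 ± 0.33, adjusted p = 0.000113). All OPC libraries lay several-fold above the iOLs, and library 3 was the lowest OPC library for each. The AMPA receptor subunits Gria2 (−1.18), Gria3 (−1.05) and Gria4 (−0.88) fell, with Gria2 at an adjusted p = 0.0588 without iOL library 2. The potassium channel Kcna1 rose (2.82 ± 0.23, adjusted p = 2.31e-05), as did Kcna6 (0.88) and Grin2a (1.19). Against the day 6 OPC library alone 23 members were lower and 3 higher. Other genes with the largest falls were Unc13c, a synaptic vesicle priming protein (−5.73), Tmem255b, a membrane protein (−5.42), the secreted C1ql2 (−5.29), the somatostatin receptor Sstr1 (−4.97), Cd83, an immunoglobulin family membrane protein (−4.82), the cadherin Cdhr1 (−4.81) and the phospholipase Pla2g3 (−4.73). The antisense gene B9d1os (−5.12) is uncertain, since the sources used here do not say whether counting used strand.

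Wnt signalling is known to time the differentiation of OPCs, and its genes had 11 of 49 members higher and 15 lower. The members that fell furthest include inhibitors and feedback genes of the pathway. The receptor Lgr6 was read at 10.6, 12.2 and 36.6 CPM in OPCs and 1.01 and 1 CPM in iOLs (−4.29 ± 0.78, adjusted p = 0.00213). The secreted antagonist Sfrp2 was read at 50.3, 50.4 and 48.05 CPM and 5.64 and 4.49 CPM (−3.29 ± 0.16, adjusted p = 2.75e-06). Rnf43, which removes Wnt receptors from the surface, was read at 101, 92.04 and 92.2 CPM and 13.3 and 13.6 CPM (−2.82 ± 0.13, adjusted p = 2.56e-06). Lef1, a transcription factor of the pathway, went from 17.1, 19.4 and 17.8 CPM to 5 and 6.19 CPM (−1.69 ± 0.19, adjusted p = 0.000144). All 4 had separate groups, and Lgr6 had its highest value in the day 6 OPC library. Nkd1 (−2.23), Nkd2 (−2.22), Notum (−1.93) and Znrf3 (−0.92), which are feedback inhibitors, fell, with Znrf3 at an adjusted p = 0.0664 without iOL library 2. The ligands Wnt5a (2.14) and Wnt5b (2.01) and the receptor Fzd1 (1.80) rose, as did the antagonist Sfrp5, from 2.17, 0.808 and 2.37 CPM to 11.1 and 18.9 CPM.

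Developmental transcription factors of other lineages are known to be kept silent by PRC2. Of 113 written 57 are in the table, of which 20 fell, 5 rose and 32 did not pass the test, with a median of −0.27. Against the day 6 OPC library alone 8 were lower, near the 12% of all genes in that fit, and 2 were higher. Osr2, a zinc finger factor of mesenchyme, was read at 21.8, 27.9 and 6.14 CPM in Eed cKO OPCs and 1.22 and 1.16 CPM in Eed cKO iOLs (−3.95 ± 0.61, adjusted p = 0.000877). Foxf1, a forkhead factor of mesoderm, was read at 16.6, 17.5 and 14.2 CPM and 5.43 and 7.56 CPM (−1.31 ± 0.21, adjusted p = 0.00118). Tbx18, a T-box factor, was read at 8.9, 10.2 and 5.68 CPM and 3.03 and 3.44 CPM (−1.35 ± 0.29, adjusted p = 0.00524), and the homeobox factor Hlx at 9.93, 7.75 and 9.08 CPM and 2.45 and 3.33 CPM (−1.62 ± 0.24, adjusted p = 0.000732). Every Eed cKO library, iOLs included, lay above every control library for these 4 genes. The control libraries held 2 or fewer counts of Foxf1 each, and 4 counts of Osr2 in each OPC and 1 in each iOL library. Every gene in the table has at least 10 counts in 4 libraries, so Foxf1 and Osr2 are in it only through Eed cKO libraries. Their separation from controls was therefore largely fixed by which genes the table holds. Osr2 was lower in the day 6 OPC library than at day 7, and against that library alone it was −2.35 (adjusted p = 0.00535). Pou3f1 (−2.84) and Foxp2 (−2.46), which are neural factors, also fell. The members that rose were Tfap2b (1.57), Dlx1 (1.25), Pax2 (1.17), Pou4f1 (0.99) and Ebf1 (0.71). Tbx18 and Dlx1 lost their calls without iOL library 1 (adjusted p = 0.0565 and 0.111), and Tfap2b, Pou4f1 and Ebf1 without iOL library 2 (adjusted p = 0.111, 0.0708 and 0.17). Of the Hox genes, known for patterning the body axis, 10 of 52 are in the table. Hoxb2 (−1.45) and Hoxb3 (−1.37) fell and the other 8 did not pass, with Hoxb6 at 2.44, 1.67 and 2.32 CPM in OPCs and 1.33 and 1.22 CPM in iOLs (−0.75 ± 0.29, adjusted p = 0.0649). The summed level of the 10 Hox genes was 35.9, 35.0 and 22.8 CPM in OPCs and 19.3 and 22.7 CPM in iOLs, and at most 13.4 CPM in any control library. Hoxb6 had at most 4 counts in any control library and is in the table only through Eed cKO libraries. The separation of the Hox sums from controls was therefore partly fixed by which genes the table holds. Hoxb2 was not called without iOL library 2 (adjusted p = 0.108), nor Hoxb3 without iOL library 1 (adjusted p = 0.0734).

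**Figure D4:**
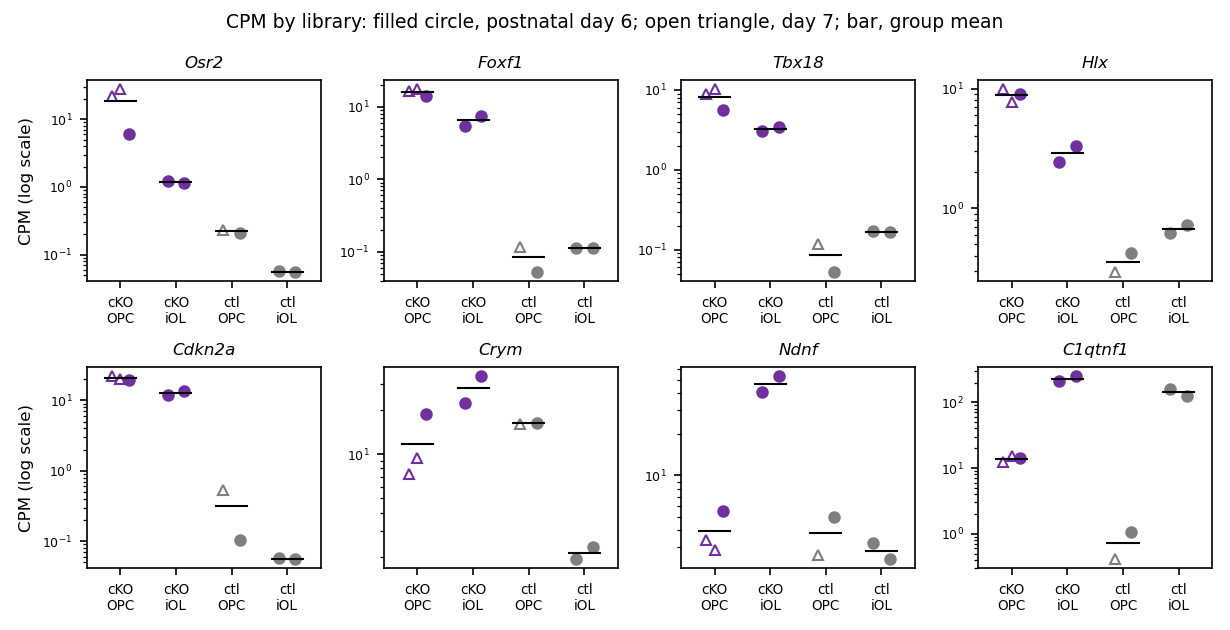
CPM of 8 genes in each library (log axes) for Eed cKO (purple) and control (grey) OPCs and iOLs; filled circles are postnatal day 6, open triangles day 7, and bars are group means. Osr2, Foxf1, Tbx18 and Hlx are lower in Eed cKO iOLs than in Eed cKO OPCs and above all control libraries, Crym and Ndnf are higher in both Eed cKO iOL libraries than in any other library, and C1qtnf1 of Eed cKO OPCs lies above control OPCs.

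The Polycomb genes themselves were called at shares near or below those of all genes, 18.5% higher and 21.8% lower. Of 14 PRC2 subunits 2 rose and 3 fell. Elongin A, Eloa, written with the accessory factors, rose from 42.9, 38.99 and 43.1 CPM to 81.3 and 80.8 CPM (0.96 ± 0.12, adjusted p = 0.000242), and Epop fell from 44.5, 41.1 and 35.8 CPM to 19.0 and 15.8 CPM (−1.22 ± 0.25, adjusted p = 0.00395), a call that reached an adjusted p = 0.0501 without iOL library 2. The accessory subunits Phf1 (−0.54) and Mtf2 (−0.62) fell, and Jarid2 rose (0.42). Of 22 PRC1 subunits 2 rose and 4 fell. Cbx7 (−1.05) and Cbx8 (−1.09), of the family that binds methylated lysine 27, fell, and Bcor, a subunit of a variant complex, rose 2.01-fold. Mtf2 and Cbx8 lost their calls without iOL library 2 (adjusted p = 0.262 and 0.105), and Phf1 and Jarid2 without iOL library 1 (adjusted p = 0.0919 and 0.253). The Mtf2 call was also lost with postnatal day as a term (−0.28, adjusted p = 0.214).

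The counts of stress, iron, glycolysis and ribosomal protein genes stand beside 18.5% higher and 21.8% lower over all genes. The heat shock genes Hspa1a and Hspa1b, near-identical copies whose reads are uncertain between them, fell from 70.8, 27.4 and 78.3 CPM to 2.4 and 2.17 CPM and from 57.99, 20.1 and 71.9 CPM to 3.03 and 2.59 CPM. The amino acid transporter Slc7a5 fell from 298, 285 and 326 CPM to 104 and 96.4 CPM (−1.59 ± 0.15, adjusted p = 4.21e-05), and Atf5, a stress factor, rose from 21.5, 21.8 and 22.5 CPM to 71.1 and 83.2 CPM (1.81 ± 0.15, adjusted p = 2.16e-05). Of 29 stress genes 5 rose and 10 fell. Of 14 iron genes 5 rose and 1 fell, with ceruloplasmin Cp from 53.3, 55.9 and 37.6 CPM to 122 and 139 CPM (1.41 ± 0.26, adjusted p = 0.00238) and Hmox1, heme oxygenase, from 30.2, 32.1 and 30.2 CPM to 64.8 and 66.3 CPM. Of 22 glycolysis genes 6 rose and 2 fell, led by Pfkfb3, from 49.1, 45.1 and 83.04 CPM to 179 and 184 CPM, whose day 6 OPC value was the highest of the 3. Its log2 fold change was 1.62 against all OPC libraries and 1.135 against the day 6 library alone. Of 58 ribosomal protein genes 1 was called, Rpl13, which fell from 705, 667 and 576 CPM to 239 and 219 CPM. Rpl13 may share reads with near-identical copies and is uncertain.

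The change without Eed was set against that of control cells, with which it shares no library. In controls 2846 genes were higher (21%) and 3424 lower (25.3%) in iOLs. Of the genes called higher in Eed cKO cells 1750 (69.9%) were also called higher in controls, which is 61.5% of the control calls. Of those called lower 2284 (77.3%) were called lower in controls, 66.7% of the control calls. Genes called in opposite directions numbered 20 and 21. Across the 13549 genes, which are not independent replicates, the log2 fold changes had a Pearson r of 0.823 and a Spearman rho of 0.771, with a slope of 0.722 for Eed cKO on control. Precursor and cell-cycle lists had medians of −0.94 and −0.88 without Eed and of −1.35 and −1.39 in controls, and committed precursor genes −0.03 and 0.83. In control cells 12 of those 19 committed precursor genes were higher.

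The difference between the changes was itself tested, and 128 genes (0.945%) had a more positive change without Eed and 120 (0.886%) a more negative one. In this count 38 genes rose and 60 fell in both genotypes and 28 had opposite calls. A further 27 were called higher and 29 lower without Eed while not called in controls, and 33 higher and 33 lower in controls while not called without Eed. These counts rest on few libraries: without control iOL library 1 they were 0 and 2, without control iOL library 2 they were 1 and 3, and without control OPC library 2 they were 1118 and 1038. Crym (chr7:120186380-120201989), a protein that binds thyroid hormone, was read at 7.32, 9.37 and 18.6 CPM in Eed cKO OPCs and 22.3 and 33.7 CPM in Eed cKO iOLs, and at 16.1 and 16.3 CPM and 1.93 and 2.33 CPM in control OPCs and iOLs. It rose without Eed (1.25 ± 0.34, adjusted p = 0.017) and fell in controls (−2.92), a difference of 4.17 ± 0.56 (adjusted p = 0.0152). The rise was not called without iOL library 2, without OPC library 2 or against the day 6 Eed cKO OPC library alone (log2 fold change 0.60). The difference was called in 4 of the 9 fits that left out 1 library. Ndnf (chr6:65671611-65712323), a secreted protein of neurons, was read at 3.36, 2.85 and 5.52 CPM in OPCs and 40.3 and 52.8 CPM in iOLs without Eed, and at 2.64 and 5 CPM and 3.18 and 2.44 CPM in controls (difference 4.02 ± 0.50, adjusted p = 0.0109). C1qtnf1, a secreted C1q-like protein, was read at 12.3, 15.2 and 14.2 CPM and 209 and 248 CPM without Eed, and at 0.41 and 1.05 CPM and 161 and 124 CPM in controls. It rose in both, and the change was smaller without Eed (−3.53 ± 0.37, adjusted p = 0.0109), where the OPC level was already raised.

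Among cell-cycle genes, Ccnd1 fell less without Eed than in controls (difference 1.02 ± 0.18, adjusted p = 0.0327), with 131 and 151 CPM in Eed cKO iOLs and 52.8 and 54.1 CPM in control iOLs. Cdkn1a rose less without Eed (−1.96 ± 0.37, adjusted p = 0.0368) from an OPC level of 40.9, 38.7 and 39.3 CPM, against 7.62 and 5.05 CPM in control OPCs. Ccng1 also rose less (−1.09 ± 0.23, adjusted p = 0.0496), and without control OPC library 1, which stands apart, its adjusted p was 0.073. Gjb1 fell further without Eed than in controls (−3.10 ± 0.44, adjusted p = 0.0158), since control iOLs kept 3.75 and 5.55 CPM. Sfrp2 fell less (2.29 ± 0.25, adjusted p = 0.0109), and Fbln5 rose more (2.21 ± 0.26, adjusted p = 0.0109). Of the committed precursor genes, the Src-family kinase Fyn (−1.22 ± 0.20), Epb41l2 (−1.58 ± 0.24) and Cyfip2 (−1.43 ± 0.21) had a more negative change without Eed (adjusted p = 0.0255, 0.0213 and 0.0168). For Bcas1 (−1.64 ± 0.42, adjusted p = 0.0888), Myrf (−1.45 ± 0.40, adjusted p = 0.102) and Enpp6 (−1.99 ± 0.74, adjusted p = 0.199) the difference did not pass, although control iOLs were read at 3430 and 3273 CPM of Bcas1 and 485 and 469.5 CPM of Myrf. For Foxf1 (−1.71 ± 0.83) and Osr2 (−2.09 ± 2.44) it did not pass either, and their control changes rest on too few counts to be read.

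**Figure D5:**
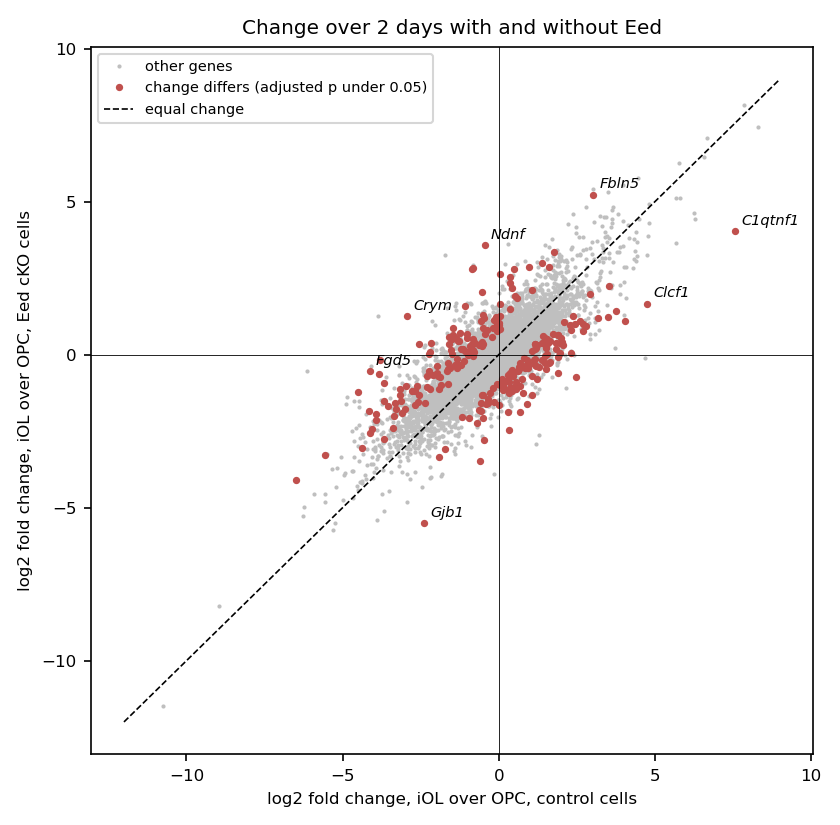
Log2 fold change of iOLs over OPCs in control cells (x axis) and in Eed cKO cells (y axis) for 13549 genes; red points are the 248 genes whose change differed between genotypes at an adjusted p under 0.05, and the dashed line marks equal change. A straight-line fit to all points had a slope of 0.722, less steep than the dashed line. Crym, Ndnf, C1qtnf1, Fgd5, Clcf1, Fbln5 and Gjb1 are among the red points away from the dashed line.

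Of the 5461 genes called without Eed, 2667 stayed called without each of the 5 Eed cKO libraries in turn. In the fit of all libraries 1113 of these were higher and 1554 lower, and all 2667 were also called with postnatal day as a term. The furthest of these were Serpina3n, Acta2, Prph, Bcl3, Tagln and Hpgd among the rises and Hbb-b1, Fosb, Unc13c, Gjb1, Klf2 and Tmem255b among the falls. With only the day 6 OPC library in the group, 2574 of the 5461 were called in the same direction.

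Beside a call lost when a library is left out, the library given is the one whose omission gave the largest adjusted p, and some calls were lost without others too. The calls listed here are those of iOLs against OPCs in Eed cKO cells, not those of the difference from controls. The latter are not given without single libraries for Fyn, Epb41l2 and Cyfip2. Of the genes named, Id2, Id4, Thra, Erbb2, Tfap2b, Mtf2, Ezr and Fyn were not called without either iOL library, nor without OPC library 1 or 2, and Cyfip2 not without any of the 5. Nr4a3, Hoxb2 and Rbpj were lost without either iOL library or OPC library 2, Ebf1 and Smad6 without either iOL library or OPC library 1, and Slc1a2 and Agt without either iOL library or OPC library 3. Hoxb3, Phf1, Cbx8 and Znrf3 were lost without either iOL library. Jarid2 was lost without any library but OPC library 1, Thrb without OPC library 2 or 3 or iOL library 2, and Olig2 without OPC library 1 or iOL library 2.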

How the data were processed

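RNA was sequenced from 9 samples of cultured mouse cells, and the 5 Eed cKO libraries carry the main comparison. The chromatin immunoprecipitation samples were not analysed here. The deposited table gives, for each gene, the raw count of reads that the authors assigned to it. Reads were trimmed with cutadapt 1.14, aligned to mm10 with STAR 2.6.0 and counted with featureCounts of Subread 1.6.2, per the submitters' processing notes. Samples with more RNA went into a stranded polyA kit and those with less into an amplifying kit, per the labels' protocols, and the kit of each library is not given. The table holds 13549 genes, each with at least 1 count in every library and at least 10 counts in 4 libraries. A header line repeated inside it was left out.

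The software was edgeR 4.0.16 and, as an alternative, DESeq2 1.42.0, in R 4.3.3. One quasi-likelihood fit in edgeR took all 9 libraries as 4 groups with TMM scaling. A filter at a minimum count of 10 removed no gene. A gene is called where its p, adjusted by Benjamini-Hochberg across the 13549 genes, is under 0.05. The biological coefficient of variation was 16.3%, with 5 residual degrees of freedom. Each standard error was derived from the log2 fold change and its F statistic. Positions come from RefSeq (GRCm38.p6), matched by symbol for 97.9% of genes.

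The members and gene lists were chosen with earlier results of these data known. Named are lineage, cell-cycle and Polycomb genes written by hand, the 12 largest changes each way at 5 CPM or more in the higher group with no overlap, up to 4 called members of each list by size of change, the 6 largest differences from control each way, and the 6 largest changes each way that kept their call without each library and with postnatal day as a term. Other members are named beside the list counts, after their values were seen. Some genes that fall under this rule are not reported here, but count in the totals and lists. As alternatives, the fits were repeated with DESeq2's RLE size factors, without the filter, with a filter of 1 CPM in 4 libraries and on only the libraries compared. They were also repeated with a replicate block, with postnatal day as a term, without the Eed cKO OPC libraries of day 7, and without each library, and DESeq2 was run. The fit with only the day 6 Eed cKO OPC library kept control OPC library 1, which is of day 7. Its tests of the difference from controls therefore still mix days on the control side. The scripts were tested on simulated data.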

Additional observations from a re-analysis of the deposited data

Results flagged for a closer look

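For 17 named genes the change over 2 days differed between Eed cKO and control cells by edgeR's test of the difference itself, at an adjusted p under 0.05. The values are log2 differences, the change without Eed minus that in controls. Without single libraries, the number of the 9 fits that kept the call is given for the genes with the fewest and the most: 2 of 9 for Ccng1 and 8 of 9 for C1qtnf1.

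The change was more positive without Eed for Crym (4.17), Ndnf (4.02), Fxyd1 (3.63), Fgd5 (3.61), Ntsr2 (3.28), Olfm3 (3.19), Sfrp2 (2.29), Fbln5 (2.21) and Ccnd1 (1.02). Fxyd1, a regulator of the sodium pump, was read at 4.72, 4.25 and 14.1 CPM in Eed cKO OPCs and 46.8 and 61.8 CPM in Eed cKO iOLs, and at 11.01 and 16.1 CPM and 5.91 and 9.44 CPM in control OPCs and iOLs. Fgd5, an exchange factor for Cdc42, was read at 11.9, 10.4 and 9.91 CPM and 6.28 and 8.62 CPM without Eed, and at 9.02 and 10 CPM and 0.738 and 0.333 CPM in controls. The neurotensin receptor Ntsr2 fell in both genotypes, to 21.1 and 18.03 CPM without Eed and 4.03 and 3.33 CPM in controls. Olfm3 did not pass the test without Eed (−0.64 ± 0.28, adjusted p = 0.0951) and fell in controls (−3.82, adjusted p = 6.45e-05).

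The change was more negative without Eed for C1qtnf1 (−3.53), Gjb1 (−3.10), the cytokine Clcf1 (−3.09), Crybg1 (−2.96), the metalloprotease Adamts18 (−2.88), the corepressor family member Tle6 (−2.79), Cdkn1a (−1.96) and Ccng1 (−1.09). Adamts18 was read at 22.03, 26.7 and 18.3 CPM in Eed cKO OPCs and 2.08 and 1.9 CPM in Eed cKO iOLs, and at 3.46 and 4.58 CPM and 2.61 and 2.67 CPM in control OPCs and iOLs. Tle6 was read at 8.52, 11.4 and 11.6 CPM and 1.7 and 2.06 CPM without Eed, and at 5.45 and 3.47 CPM and 6.19 and 4.94 CPM in controls. Clcf1 and Crybg1 had higher OPC levels without Eed, 4.39, 3.72 and 2.43 CPM against 0.351 and 0.684 CPM and 3.8, 4.52 and 3.82 CPM against 0.234 and 0.368 CPM. With only the day 6 OPC library in the Eed cKO group, none of the 17 differences passed the threshold, and their adjusted p ran from 0.232 to 0.353.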

How the results depend on the processing

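The 2505 higher and 2956 lower genes became 1091 and 1629 with only the day 6 OPC library, which leaves 1 library in that group. They ranged from 1280 to 2752 and from 1800 to 3137 when 1 Eed cKO library was left out at a time, lowest without iOL library 2. Of the calls 45.9% were higher, and 40.1% with the day 6 library. In controls the higher count was 1862 with only the 4 control libraries, and leaving out each control library in turn (chosen after seeing the data) gave 1784 to 3221 higher and 2256 to 4015 lower. The 128 larger and 120 smaller differences were 479 and 570 with the replicate block, 676 and 526 with postnatal day as a term, 364 and 459 with DESeq2, and 0 and 0 with only the day 6 library. In that last setting 634 and 541 had an unadjusted p under 0.05 in edgeR, while DESeq2 called 98 and 78. Leaving out each of the 9 libraries gave 0 to 1118 larger and 2 to 1038 smaller. The 0 came without control iOL library 1, where 811 had an unadjusted p under 0.05 in edgeR and DESeq2 called 133. With postnatal day as a term Mag turned from −0.26 to 1.37. All 146 named calls kept their side of the threshold with RLE size factors, no filter, the replicate block and DESeq2. Of the 146, 3 lost it with the day term, 28 with only the day 6 library, 13 without iOL library 1 and 20 without iOL library 2. The replicate block gave 2687 higher and 3107 lower. OPC library 3 alone carries number 3, so the block drops it from the comparison. Same-numbered Eed cKO libraries had correlations of deviations of −0.076 and −0.084. The deviations of the 2 iOL libraries mirror each other, so these values cannot show whether same-numbered libraries share a source. Eed cKO OPC libraries 1 and 2 were of postnatal day 7, and both Eed cKO iOL libraries were of day 6.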
